A study of Homo sapiens with 10 samples.

Results

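The replication-dependent histone genes are described here across 3 lists of peak summits obtained by ChIP-seq (sequencing of immunoprecipitated chromatin) from HEK293T cells, an SV40 large T antigen line of human embryonic kidney origin. Members were the protein-coding RefSeq genes on chromosomes 1, 6 and 12 named H1-1 to H1-6, or H2AC, H2BC, H3C or H4C followed by a number. The series has 10 samples, of which 3 enter here. There were 69 members among 20033 protein-coding genes, of which 6 encode linker histone H1, 17 H2A, 18 H2B, 13 H3 and 15 H4. WDR5, a subunit of the COMPASS complexes that methylate lysine 4 of histone H3, was precipitated with an antibody from EMBOW knockout (KO) cells and from wild-type (WT) cells. EMBOW is a microprotein, and tagged EMBOW (EMBOW-FH) was precipitated on FLAG beads from HEK293T cells that stably express it, giving the list called EMBOW-F. Nuclei were digested with micrococcal nuclease in all 3 cases. Each group is 1 library, so no difference between groups has a replicate check and no p-value is given. The sources used here do not say whether the KO cells are a single clone or what drives expression of EMBOW-FH. Summit lists hold no expression values, so neither the knockout nor the cell type could be checked in them.

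Core histones are made in large amounts during S phase, when new DNA has to be packed. Their genes are short, have no introns as a rule, sit in clusters and give mRNAs that end in a stem-loop in place of a poly(A) tail. Their transcription and processing take place in nuclear bodies organised by NPAT, a substrate of cyclin E and CDK2. WDR5 is known for holding COMPASS complexes together and as a chromatin partner of MYC.

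The promoters of 4 members are shown because these genes stand at the ends of the results. H2AC16 (chr6:27865067-27865316, plus strand) held the highest-ranked summit found in KO and not in WT. H3C13 (chr1:149813694-149813943, minus strand) had the highest mean rank among members with a summit in both, and H4C16 (chr12:14771132-14771381, minus strand) the highest among such H4 genes. H2AC1 (chr6:25726563-25726812, minus strand) had no summit and lay farthest from any in KO. Each run is the 250 bases before the annotated start, from RefSeq (GRCh38.p14), 5′ to 3′ on the gene's strand, and capitals mark matches to the motifs named in the next paragraph.
H2AC16: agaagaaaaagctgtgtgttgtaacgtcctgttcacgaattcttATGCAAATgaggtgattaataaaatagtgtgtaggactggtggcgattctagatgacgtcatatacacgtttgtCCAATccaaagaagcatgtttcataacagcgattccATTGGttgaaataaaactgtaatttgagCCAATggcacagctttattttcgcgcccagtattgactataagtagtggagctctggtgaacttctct
H3C13: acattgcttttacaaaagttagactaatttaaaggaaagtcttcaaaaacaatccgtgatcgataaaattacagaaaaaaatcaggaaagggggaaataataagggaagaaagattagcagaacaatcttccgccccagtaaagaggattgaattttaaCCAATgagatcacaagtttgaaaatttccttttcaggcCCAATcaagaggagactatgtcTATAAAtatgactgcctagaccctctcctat
H4C16: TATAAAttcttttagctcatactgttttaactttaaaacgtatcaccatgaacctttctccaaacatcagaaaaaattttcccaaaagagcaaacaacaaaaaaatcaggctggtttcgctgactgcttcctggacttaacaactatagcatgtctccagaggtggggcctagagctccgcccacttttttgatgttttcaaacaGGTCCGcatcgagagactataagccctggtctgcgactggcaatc
H2AC1: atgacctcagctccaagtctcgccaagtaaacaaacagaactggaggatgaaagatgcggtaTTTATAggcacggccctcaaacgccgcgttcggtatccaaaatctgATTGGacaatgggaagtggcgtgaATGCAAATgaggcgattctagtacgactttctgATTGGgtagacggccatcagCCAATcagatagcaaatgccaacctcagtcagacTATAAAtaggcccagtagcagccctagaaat

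Motifs were searched on both strands in the RefSeq windows of 300 bases (250 before and 50 after the start), which were at hand for 64 of the 69 members. The missing ones are H4C1, H4C3, H2AC12, H3C11 and H3C12. TATAAA, the letters of the TATA box, was in 43 of 64 members (67.2%) and in 12.2% of the 15778 other protein-coding genes with a window. A match at any place in the window counted, such as that 250 bases before the start of H4C16, so a match need not be a TATA box. CCAAT was in 16 of 16 H2A, 18 of 18 H2B, 11 of 11 H3 and 6 of 6 H1 genes but in 3 of 13 H4 genes, against 42.0% of other genes. The octamer ATTTGCAT, a binding motif of POU2F1, was in 14 of 18 H2B and 11 of 16 H2A genes, in 1 of 11 H3 genes and in no H1 or H4 gene, against 2.06% of others. GGTCCG, the core of the element of H4 promoters read by HINFP, was in 12 of 13 H4 genes and 18.0% of others. AAACACA, from the AC box of H1 promoters, was in 6 of 6 H1 genes and 5.79% of others. CACGTG, the E-box bound by MYC and MAX, was in 0 of 64 members and 10.9% of others, so these letters are not in the members' windows. No searched motif contains another. In 11 head-to-head pairs of an H2A and an H2B gene, described further on, the windows of both genes cover nearly the same bases, so 1 match can be counted for both and their counts are not independent. The same holds for H3C4 and H2AC7, which share a start. Members with and without a KO summit held TATAAA in 65.7% and 69.0% of cases, and the octamer in 45.7% and 34.5%. Members with and without a WT summit held the octamer in 56.5% and 31.7%. Nearly all octamers were in H2A and H2B genes, which also had WT summits more often than the other types. WT summits lay at 9 of 17 H2A and 9 of 18 H2B genes, against 1 of 6 H1, 3 of 13 H3 and 3 of 15 H4 genes. The octamer and histone type thus cannot be told apart here, and paired genes can share both a match and a summit. These shares describe letters in a window and not binding.

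WDR5 summits lay at 37 members in KO and at 25 in WT. A gene was called marked if at least 1 summit fell no more than 1 kb from one of its ends, and the shares were 53.6% in KO (95% exact interval 41.2 to 65.7%) and 36.2% in WT (25.0 to 48.7%). Over all protein-coding genes 53.4% were marked in KO and 50.0% in WT. The KO share of the members was thus close to that of all genes, and the WT share was below it. Marks in both lists were found at 24 members (34.8%) against 46.4% of all genes, and 31 members (44.9%) had none, against 43.0%. A mark in KO alone was found at 13 members (18.8%, 10.4 to 30.1%), against 6.99% of all genes. A mark in WT alone was found at 1 member, against 3.51% of all genes. On chromosome 6, 11 of 55 members had a mark in KO alone (20.0%, 10.4 to 33.0%). Among the 20 other protein-coding genes between the first and last of these members it was 5 (25.0%, 8.66 to 49.1%), with 2 in WT alone. The KO-alone share was thus not particular to histone genes in that stretch. The KO list was also longer, with 21055 summits against 17660 in WT. With the KO list shortened to the length of the WT list by score, 35 members stayed marked in KO and 11 had a mark in KO alone. The 2 marks lost were those of H4C2 and H1-5. Most members are small, 61 of them between 386 and 797 bp long, so that either end and much of the flank share a window. Of the 466 other protein-coding genes under 1 kb, 8.58% were marked in KO and 7.30% in WT, so most other short genes were unmarked.

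**Figure D1:**
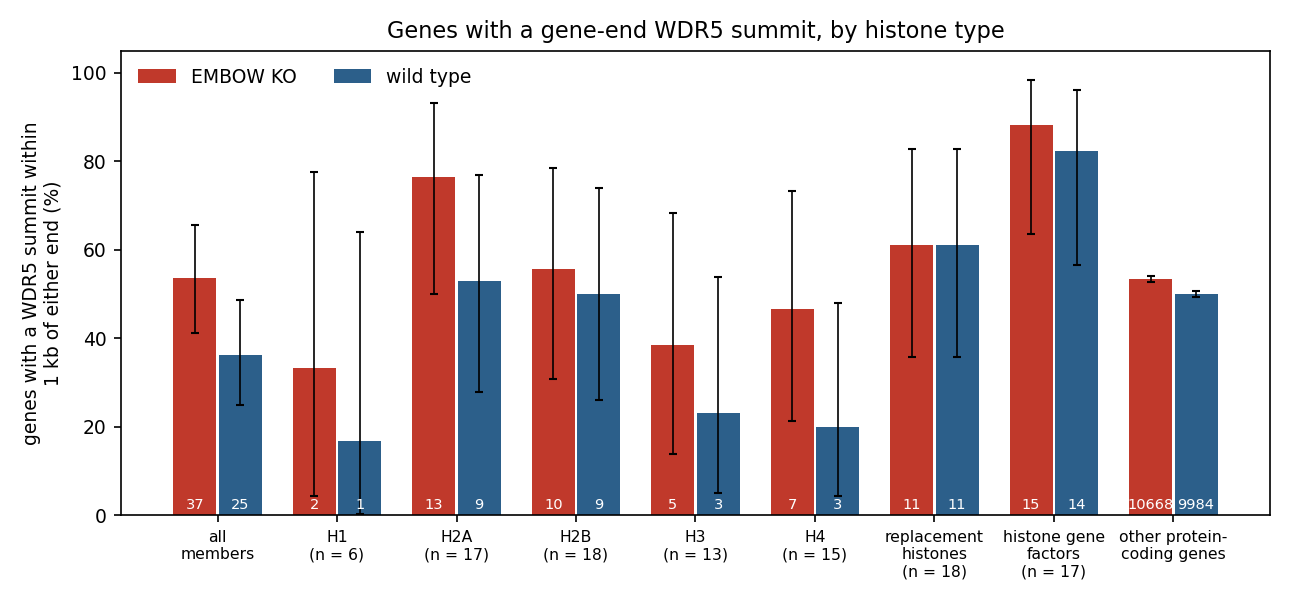
Percent of genes with a WDR5 summit within 1 kb of either end, in EMBOW KO (red) and wild type (blue), for all members, for each histone type, for lists of replication-independent histone genes and of histone gene factors, and for all other protein-coding genes. Bars are shares of genes, error bars are exact 95% intervals for counting error, and white numbers are genes marked. H2A genes have the highest KO share among the histone types, 13 of 17, and the replication-independent list has 11 of 18 in both genotypes.

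H2A genes had the highest share marked in KO, and in WT their share was close to that of H2B genes. In KO 13 of 17 H2A genes (76.5%, 50.1 to 93.2%) had a mark, and in WT 9 (52.9%, 27.8 to 77.0%). H2B genes followed with 10 of 18 in KO and 9 in WT. With a −log10 q of 5 or more, 11 H2A genes were marked in KO (64.7%) and 5 in WT (29.4%), and 8 H2B genes in KO (44.4%) and 6 in WT (33.3%), so the order of these types in WT turned. H4 genes had 7 of 15 in KO (46.7%, 21.3 to 73.4%) and 3 in WT (20.0%, 4.33 to 48.1%), and H3 genes 5 of 13 in KO and 3 in WT. The intervals of the types overlap widely and cover counting error only, and H2A and H2B genes often share summits, as described further on. Of the linker histone genes, which encode the protein that binds DNA between nucleosomes, H1-4 was marked in both lists and H1-5 in KO. H1-1, H1-2, H1-3 and H1-6 had no mark in either list, their nearest KO summits lying 3090, 2668, 8890 and 15404 bp away. H1-6 is the testis-specific linker histone. The testis-specific pair H2AC1 and H2BC1 stood farthest from WDR5, with the nearest KO summit 265503 bp and 264720 bp away, and the nearest WT summit 295158 bp and 294375 bp away.

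The highest-scoring summit of the members in either list lay at genes marked in both. Scores are the −log10 q values of the authors' peak caller, and they are set side by side without a comparison between lists. H2BC26 and H2AC25, which lie head to head on chromosome 1, shared summits with a score of 17.48 in KO (position 228458287, rank 2791) and 13.13 in WT (228458274, rank 3540), 13 bp apart. At H3C13 the summit had a score of 12.27 in KO (149813509, rank 5039) and 24.78 in WT (149813481, rank 894), 28 bp apart. It was the only summit at a member among the first 1000 of the WT list, and the first 1000 of the KO list held 0. H4C16, the single member on chromosome 12, had 9.42 in KO (14770913) and 5.62 in WT (14770780). H4C11 had 8.35 in KO and 4.97 in WT, with summits 4 bp apart. H1-4 had 4.87 in KO and 3.34 in WT, 34 bp apart, at ranks 12979 in KO and 14429 in WT. On chromosome 6 the highest KO score of members marked in both was 11.73 (26020877, rank 5487), at H3C1 and H4C1, with 3.34 in WT. The highest WT score there was 8.67, at H2AC17 and H2BC17, with 4.04 in KO. H2BC12 and H2AC12 shared a summit with 8.38 in KO and 4.94 in WT.

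The 13 members marked in KO and not in WT were 4 H2A, 2 H2B, 2 H3, 4 H4 and 1 H1 gene, and 11 of them lay on chromosome 6. They carried 11 distinct strongest summits with scores from 2.0 to 14.01 and a median of 6.07. H2AC16 had the highest, 14.01 at 27865467 (KO rank 4117), 150 bp inside the gene, and the nearest WT summit lay 26437 bp away. H3C10 followed with 9.17 and no WT summit within 13933 bp. H2AC18 and H4C15 on chromosome 1 shared a KO summit of 7.85 that lay 791 and 947 bp from their ends, close to the edge of the window. The summit was upstream of the start of H2AC18. For H4C15, annotated as 16753 bp long, it lay beyond the 3′ end and far from the start. H2BC13 and H2AC13, a divergent pair, shared a KO summit of 7.61. The H4 genes H4C5, H4C8 and H4C2 had 6.07, 4.39 and 2.0, H2AC4 had 5.58, H2BC7 5.48, H3C7 3.90 and H1-5 2.75. For 12 of the 13 the nearest WT summit was over 5 kb away, the exception being H2BC7 with a WT summit at 1033 bp. The member with the converse pattern, H2BC5, had a WT summit of 5.86 at 843 bp and a KO summit at 1007 bp, on either side of the window's edge. Both lay beyond the 3′ end of this gene, which is annotated as 13229 bp long. Close to that edge lay also H3C4, with a WT summit 810 bp from an end, and H3C6, with summits 1144 bp in KO and 1251 bp in WT from its ends. These last are 187 and 294 bp from a second annotated start of H3C6, which the rule on gene ends does not use.

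Summits at members scored lower than summits at other gene ends. The 38 KO summits at members had a median −log10 q of 5.53 (quartiles 3.46 and 8.48), against 8.70 (4.94 and 14.66) for 11719 KO summits at the ends of other genes. The 22 WT summits at members had a median of 5.30 (3.34 and 8.22), against 7.81 (4.88 and 13.27) for 10807 others. Of the KO summits at members 0 stood in the highest 10% of the list, against 13.7% at other genes, and of the WT summits 1, or 4.55%, against 12.4%. WT scores of 3.34 lay at 4 members' summits, a value held by 210 summits of the whole list. With a −log10 q of 5 or more in both lists, 28 members were marked in KO (40.6%, 44.5% of all genes) and 13 in WT (18.8%, 39.7% of all genes). At that score 20 of 69 members had a mark in KO alone, against 1913 of 20033 genes (9.55%). In WT alone it was 5 (H2BC18, H2AC21, H2BC5, H2AC17 and H2BC17), against 4.78% of all genes. Alone here means that no summit of the other list reached the score, and a lower one may be present. H4C11 had 4.97 in WT, and H2BC12 and H2AC12 had 4.94. In the other direction H2BC18 had 4.06 and H2AC21 4.73 in KO. These counts are therefore not sets of genes without a summit in the other list.

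**Figure D2:**
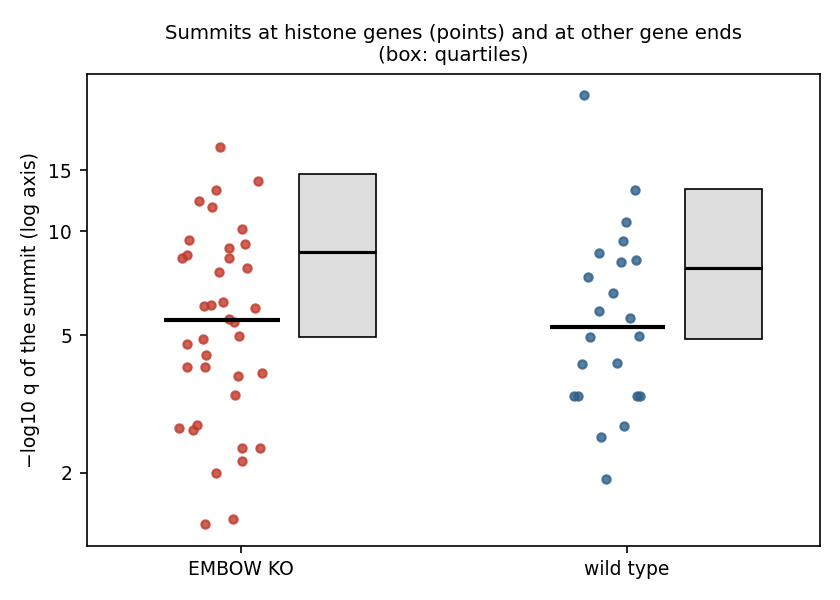
The −log10 q of each summit at a histone gene (points, log axis) in EMBOW KO and wild type, with the median as a thick line, beside the quartiles and median of summits at other gene ends (grey box). Points run from 1.42 to 17.48 in KO and from 1.92 to 24.78 in WT, and both medians lie below the lines of the grey boxes.

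Fewer KO than WT summits at members had a partner in the other list. Of the 38 KO summits at members 18 (47.4%, 31.0 to 64.2%) had a WT summit within 500 bp, against 75.2% of KO summits at other gene ends. Of the other KO summits 7 had a WT summit beyond 500 bp but within 5 kb, and 13 had none within 5 kb. Of the 22 WT summits at members 20 (90.9%, 70.8 to 98.9%) had a KO summit within 500 bp, against 82.0% of WT summits at other gene ends. For the 24 members marked in both, the strongest summits of KO and WT lay 4 to 843 bp apart with a median of 106.5 bp. At 8 of them, including H3C1 and H4C1 with 843 bp, the distance was over 500 bp. At 6 of these 8 another KO or WT summit of the same gene made a closer pair. At H3C1 and H4C1 the pair was 93 bp apart, at H2BC4 and H2AC6 149 bp, and at H2AC15 and H2BC15 25 and 156 bp. H3C4 and H2AC7 had no pair closer than 630 bp.

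By position, most summits nearest to the start of a member lay downstream of it. The nearest annotated start within 1 kb belonged to a member for 33 KO and 18 WT summits. These are not a subset of the summits at members counted above. They include the KO and WT summits 187 and 294 bp downstream of the second start of H3C6, a gene unmarked by its ends. In KO 29 of these 33 (87.9%, 71.8 to 96.6%) lay 1 to 500 bp downstream, against 62.3% of 10753 summits at other genes, and 2 lay upstream (6.06%), against 27.0%. In WT 16 of 18 (88.9%, 65.3 to 98.6%) lay 1 to 500 bp downstream, against 63.3% of 9936 at other genes, and 0 upstream, against 25.4%. The median position was 226 bp downstream in KO and 340 bp in WT, against 168 and 169 bp at other genes. Most members are shorter than the window, and 28 of 38 KO and 18 of 22 WT summits at members lay between the ends of a member. In the head-to-head pairs described below, the starts lie 194 to 248 bp apart. A summit farther upstream of 1 start than that lies downstream of the other and is counted there. The upstream and downstream shares of members are therefore partly set by this layout.

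**Figure D3:**
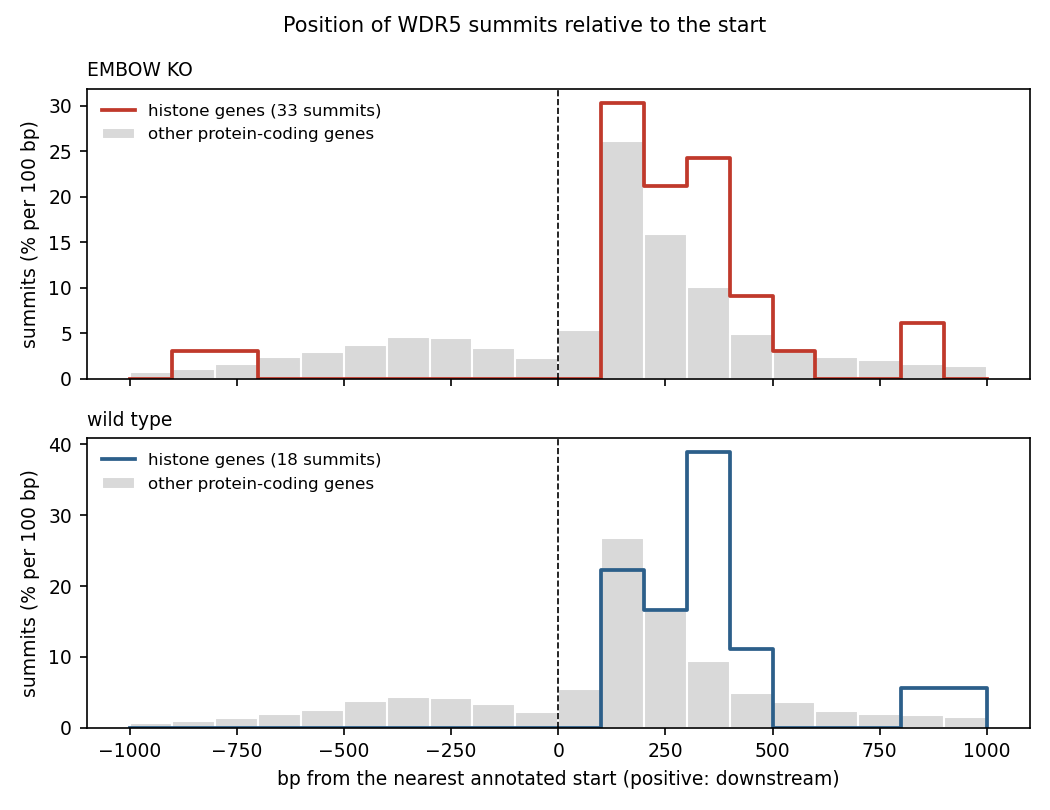
Position of WDR5 summits relative to the nearest annotated start, in bins of 100 bp, as percent of summits, for histone genes (coloured line) and other protein-coding genes (grey), in EMBOW KO above and wild type below. Histone gene summits gather between 100 and 500 bp downstream, and before the start lie 2 of the 33 KO and 0 of the 18 WT summits.

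Head-to-head pairs of an H2A and an H2B gene are a feature of these clusters, and 11 were found with 194 to 248 bp between the starts. Between the 2 starts of such pairs there were 0 WDR5 summits in KO and 0 in WT, while the genes themselves held 13 in KO and 9 in WT. The gaps between starts are short, with a median of 236 bp, while the genes are 451 to 10757 bp long. Few summits could fall in the gaps by length alone, so the 0 does not show that they are avoided. Whether it is fewer than length would give was not tested. In KO 8 pairs had both genes marked and 3 had neither. In WT both were marked in 6, 1 gene in 1 pair and neither in 4. A summit in each of the 2 genes was seen in 5 pairs in KO and 3 in WT, such as H2AC25 and H2BC26, H2AC15 and H2BC15, and H2AC17 and H2BC17 in both. The unmarked pairs in both lists were H2AC1 with H2BC1, H2BC8 with H2AC8, and H2AC14 with H2BC14. Members of a pair share summits, so they are not independent marks.

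The 6 clusters, made of members at most 500 kb apart, held 50 KO and 25 WT summits over 780 kb. That is 6.41 and 3.21 per 100 kb, against 0.683 and 0.573 per 100 kb over the whole lists. For the whole lists each chromosome was taken up to its last summit in any list. The clusters are cut 1 kb from their outer genes and are dense in genes, so these densities do not measure enrichment per gene. Per gene, 53.6% of members were marked in KO against 53.4% of all genes, and 36.2% against 50.0% in WT. The ratio of KO to WT in the clusters was 2.0 (1.21 to 3.37), and 1.19 in the lists. The largest cluster, from H2AC1 to H4C8 on chromosome 6 with 34 members, held 24 KO and 7 WT summits, and 13 of its members were marked in KO and 8 in WT. The cluster from H2BC13 to H2BC17 with 16 members held 12 KO and 6 WT summits, with 10 members marked in KO and 5 in WT. The cluster from H2BC11 to H2AC12 had 3 summits in each genotype for 5 members, of which H4C9 was unmarked. On chromosome 1 the cluster from H2BC18 to H2AC21 had 6 KO and 5 WT summits for 11 members, and the pair of H2AC25 and H2BC26 had 3 in each. H4C16 on chromosome 12 had 2 KO summits and 1 WT summit.

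**Figure D4:**
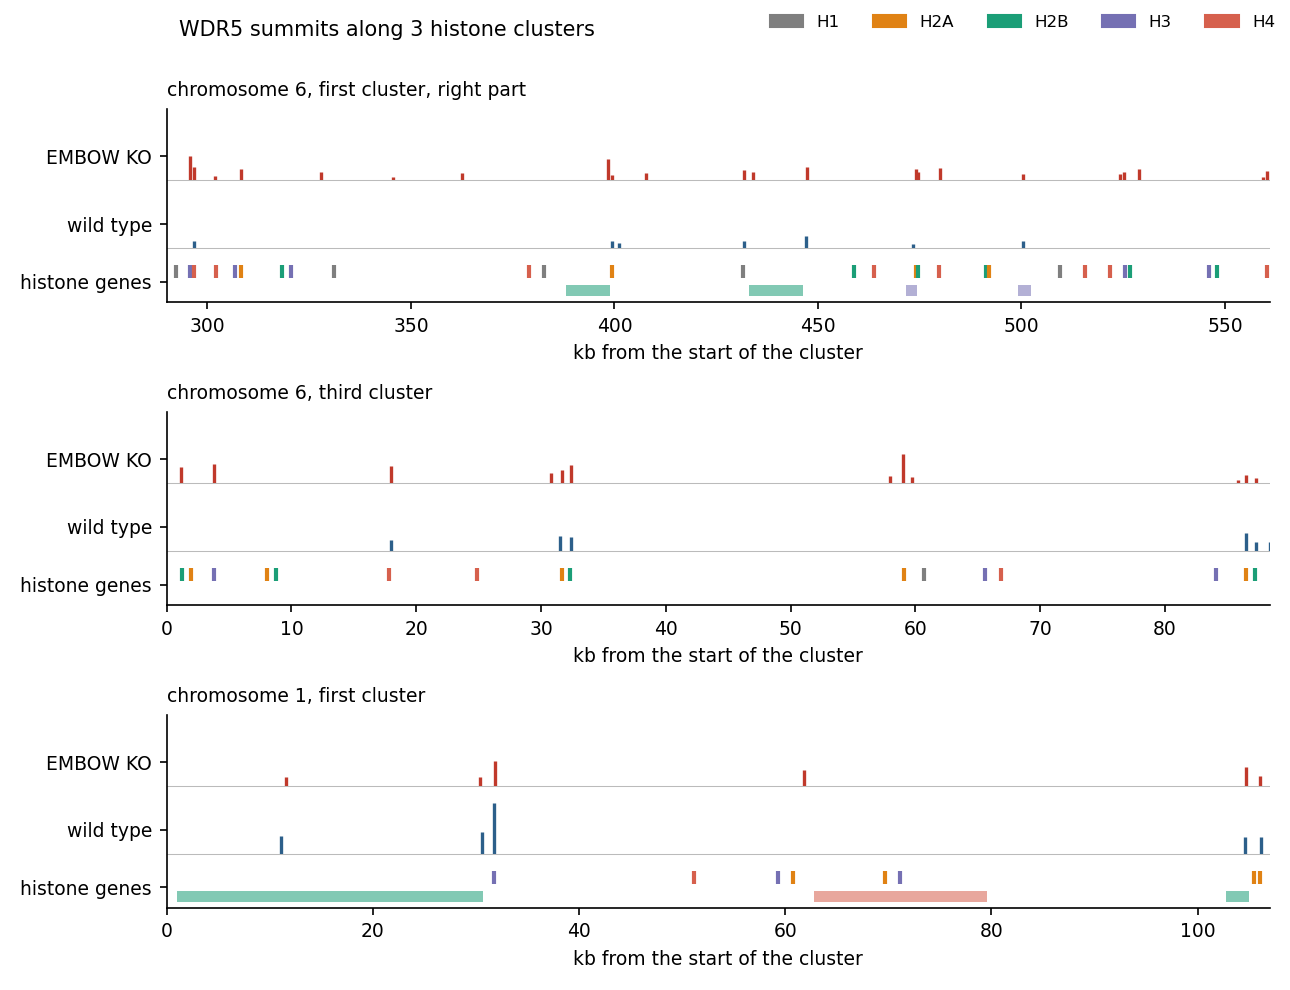
WDR5 summits in EMBOW KO (upper row) and wild type (lower row) along 3 clusters, against kb from the cluster's start, with the height of each line in proportion to −log10 q. Coloured ticks mark the middle of histone genes under 1 kb and pale bars show longer ones drawn to scale, and the first panel shows the right part of its cluster. The whole cluster of the first panel has 24 KO and 7 WT summits, and the third panel has 6 KO and 5 WT summits, the additional KO line standing among the near-identical copies in the middle.

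In the middle of the chromosome 1 cluster lie near-identical copies. The promoters of H4C14 and H4C15 agree in 300 of 300 bases, those of H2AC18 and H2AC19 share an unbroken run of 299 and those of H3C14 and H3C15 a run of 296. On chromosome 6 H4C11 and H4C12 differ in 5 of 300 bases. The sources used here do not say how reads that fit several copies were placed, so marks and missing marks at these genes are uncertain. Of these 8 genes H2AC18, H4C15 and H4C11 were marked in KO, and H4C11 in WT. H3C4 and H2AC7 share an annotated start, and their marks are the same summits. Without these 10 genes 32 members were marked in KO and 22 in WT, 11 in KO alone. Only promoter windows were compared here, while 28 of 38 KO and 18 of 22 WT summits at members lay inside a gene. Likeness of the genes themselves was not checked, so marks at other members may be uncertain too.

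On chromosome 6 KO had more summits than WT both at histone genes and around them. From 1 kb before the first to 1 kb after the last member of chromosome 6, a stretch of 2.17 Mb, there were 78 KO and 30 WT summits, a ratio of 2.6 (1.69 to 4.1). The rest of chromosome 6 had 1154 and 971, a ratio of 1.19 (1.09 to 1.3). Within the stretch the ratio was 2.0 (1.02 to 4.11) at members, with 28 KO and 14 WT summits, and 3.12 (1.75 to 5.88) away from members, with 50 and 16. Ends of the 20 other protein-coding genes held 8 KO and 4 WT of these. The stretch also holds 98 of the 443 tRNA genes in the table, which are transcribed by RNA polymerase III, and 15 KO and 6 WT summits lay within 1 kb of a tRNA gene and of no protein-coding gene end. The remaining 27 KO and 6 WT summits were at none of these. Of the 98 tRNA genes 16 had a summit within 1 kb in KO and 6 in WT, and of the 345 elsewhere 98 in KO and 89 in WT. With a −log10 q of 5 or more the stretch held 28 KO and 12 WT summits, 2.33 times as many (1.15 to 5.04). At that score the order of the 2 ratios turned, with 14 KO and 4 WT summits at members (3.5, 1.1 to 14.6) and 14 KO and 8 WT summits away from members (1.75, 0.685 to 4.81). With the KO list at the length of the WT list it held 57 KO summits. Whether the summits at members differ in this from the rest of the stretch was not tested.

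**Figure D5:**
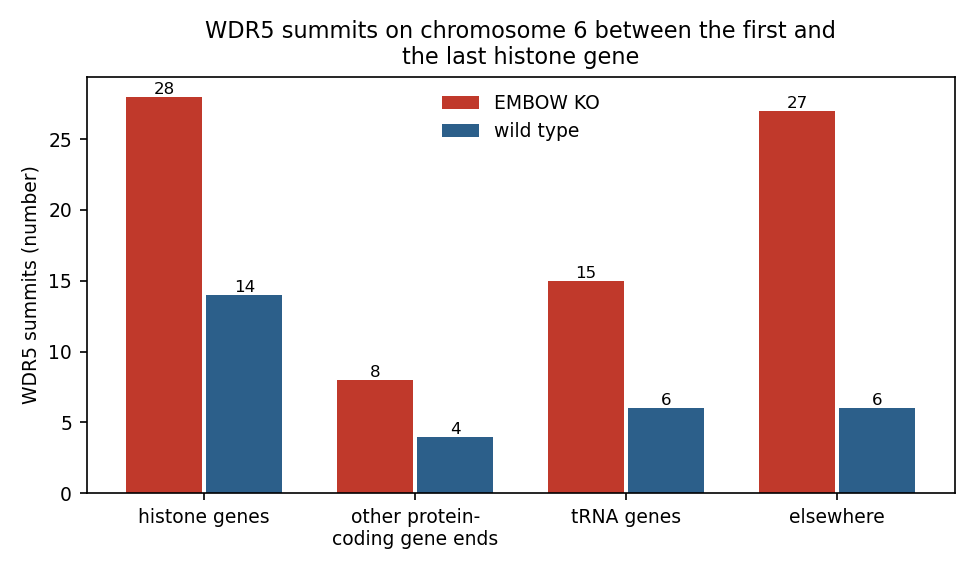
Number of WDR5 summits on chromosome 6 between the first and the last histone gene, in EMBOW KO (red) and wild type (blue), at histone genes, at ends of other protein-coding genes, at tRNA genes away from such ends, and elsewhere. KO has more summits in each class, 28 against 14 at histone genes and 27 against 6 elsewhere.

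No summit of tagged EMBOW lay at a histone gene. An EMBOW-F summit lay within 1 kb of 0 of 69 members, against 1.40% of all protein-coding genes. A limit of 3 counts in 69 allows a share of up to 4.35%, and the exact 95% upper bound is 5.21%. Both limits treat the members as independent, but 55 of the 69 lie in 1 gap on chromosome 6, described below. For genes grouped in a few loci these limits are too low. Of the 466 other protein-coding genes under 1 kb, 47 had an EMBOW-F summit (10.1%, 7.51 to 13.2%). Whether the members differ from these short genes was not tested. The 6 clusters held 0 EMBOW-F summits, with 50 KO and 25 WT WDR5 summits. The nearest EMBOW-F summit lay 160815 bp from H4C16, at least 1521966 bp from the members on chromosome 6 and at least 2507538 bp from those on chromosome 1. All chromosome 6 members fall in a gap of 23.7 Mb without an EMBOW-F summit, from 24204097 to 47866473, on a chromosome that has 8887 of them and whose next longest gap is 7.79 Mb. The same gap holds 451 protein-coding genes, 432 KO and 316 WT WDR5 summits. The lack of EMBOW-F summits at the chromosome 6 members is thus shared by a region with many other genes.

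Histone genes listed as replication-independent had marks at the same genes in both lists. Of 18 replication-independent histone genes 11 were marked in KO and the same 11 in WT. They included H3-3A and H3-3B, which encode the replacement histone H3.3, with scores of 28.00 and 29.30 in KO and 34.40 and 40.75 in WT. H2AX, the variant phosphorylated at DNA breaks, had 28.16 in KO and 13.42 in WT, H2AZ1 10.73 and 5.02, and MACROH2A1 24.04 and 25.28. The 7 unmarked ones were H1-7, H1-8, H3-5, H2AB1, H2AB2, H2AB3 and H2BW1. Whether these 7 are expressed in these cells was not checked, so part of the agreement may be on silent genes. Of 17 genes for transcription and processing of histone mRNA, 15 were marked in KO and 14 in WT. SLBP, the protein that binds the stem-loop, had the highest KO score, 93.07, and 33.76 in WT. NPAT had 9.75 in KO and 6.4 in WT, CCNE1 17.39 and 12.01, and CDK2 19.88 and 18.95. CASP8AP2 (FLASH), a component of the histone locus body, was marked in KO at 843 bp with 5.89, against a distance of 9834 bp to the nearest summit in WT. HINFP and CSTF2 were unmarked in both. Whether the pattern of the members differs from that of these lists was not tested.

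The authors' deposited table of new WDR5 targets dependent on EMBOW holds 18665 transcripts, and histone genes are frequent in it. In the authors' deposited table a listed 5′ end lay within 100 bp of that of 36 of the 64 members with a known strand (56.2%, 43.3 to 68.6%), against 7.49% of 15842 protein-coding genes. The authors' deposited table belongs to the same series and the sources used here do not give its rule, so this is no independent evidence. By type it held 12 of 13 H4, 7 of 11 H3, 9 of 16 H2A, 8 of 18 H2B and 0 of 6 H1 genes. Of the 13 members with a mark in KO alone 12 were in the authors' deposited table, against 64.3% of all protein-coding genes with that pattern. Of the 22 members with a strand and a mark in both lists 7 were in the authors' deposited table, against 2.66% of such genes overall. Of the 28 members with a strand and no mark in either list, 16 were in the authors' deposited table as well, against 4.03% of such genes overall. For these 16 the nearest KO summit lay 1144 to 12891 bp from a gene end. H3C6, H3C2 and H2BC9 were the nearest, at 1144, 1334 and 1386 bp, and H4C4, H4C14, H2BC10, H2BC6 and H3C8 lay over 10 kb from a KO summit. Of the 18 other protein-coding genes with a strand between the first and last member on chromosome 6, 5 were in the authors' deposited table.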

How the data were processed

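Summits were taken from lists that the authors deposited, 1 per library for WDR5 in KO and WT cells and a list of the whole series for EMBOW-F, matched to the FLAG precipitation as the only one of tagged EMBOW in the labels. Per the submitters' processing notes, the build was hg38 and the tools were MACS2 2.2.7.1, Bowtie2 2.4.5 and deepTools 3.5.1, with no role or setting given. The deposited score per summit has the form of a −log10 q value, its lowest value in each list lying at that of a q of 0.05. Positions are single bases, counted from 1. Depth is unknown and the intervals, exact (Clopper-Pearson), cover counting error only. H3K4me3 and input libraries named in the labels were not analysed here, and the sources do not say which input each list was called against.

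Genes came from RefSeq (GRCh38.p14), starts and strands from its promoter table, which does not cover all genes. Members and lists were chosen with earlier results of these data known. Every member marked in a single WDR5 list, every H1 gene, the highest-ranked members by type and cluster and those near the edge of the window were named. Of the 19 replication-independent genes listed, 18 were in the table. Computation was in Python 3.11.15 (scipy 1.17.1, pandas 2.3.3, numpy 2.4.6) with figures by matplotlib 3.10.9, and the marking step was tested on simulated data, with 0 mismatches. No comparison has a test, since there is 1 library per group.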

Additional observations from a re-analysis of the deposited data

How the results depend on the processing

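The counts of marked members were recomputed with windows of 500 bp, 2 kb and 5 kb, with starts alone, with a −log10 q of 5 or more, with the nearest gene end alone, without members that share a promoter, with the KO list at the length of the WT list and, chosen after seeing the data, without members that have a near-identical promoter. In all 9 settings more members were marked in KO than in WT. Of 50 recomputed values 39 stayed within 1.5 times the reported one. These 39 include the 7 EMBOW-F values of 0 and the WT count with the KO list shortened, which could not change. With a −log10 q of 5 or more, 28 members were marked in KO and 13 in WT, 20 in KO and not in WT and 5 in WT and not in KO, and the clusters held 22 KO and 12 WT summits. With members up to 1 Mb apart in a cluster, the clusters held 89 KO and 39 WT summits, as all chromosome 6 members then form 1 cluster. The reported count of 1 member marked in WT and not in KO became 2 with the nearest gene end alone and 0 with starts alone and with windows of 2 kb and 5 kb. EMBOW-F gave 0 members in its 7 settings. No paired analysis was possible because each group is 1 library, and for the same reason no replicate could be left out. The number of summits, not a count of reads, limits what these lists can show.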
